A study of Mus musculus with 4 samples.

Results

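The comparison described here sets the 2 experiment 2 libraries of mouse septal tissue against the 2 experiment 1 libraries. It runs over the 15409 gene rows of the 15426 rows that each file listed, the other 17 being ERCC spike-in RNAs. The 13912 gene rows whose level averaged 1 CPM or more (CPM are reads scaled to a fixed library total) were tested. Every library came from septal tissue of mice held in a restraining cone for 30 minutes on 3 days and killed 1.5 hours after the last session. Experiment 1 held 1 library from TCRb-/- mice, which lack the T cell receptor beta chain, and 1 from wild-type (WT) mice, and so did experiment 2. The labels of these groups give no age, sex or strain, and unstressed mice are not analysed here. Each library pooled the tissue of 4 to 5 mice, so a replicate is a pool, and with the genotype balanced each experiment was represented by 2 pools. The labels name the experiment as the batch and say nothing of how the experiments differed. Animals, dissection, day and library preparation therefore cannot be told apart.

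The septum lies in the midline between the lateral ventricles. Its lateral nuclei hold mainly GABAergic projection neurons, and its medial nucleus holds cholinergic, GABAergic and glutamatergic neurons that project to the hippocampus. Striatum borders it at the side, cortex and corpus callosum above, the preoptic area and hypothalamus below, thalamus and fornix behind, and the ventricles carry ependyma and choroid plexus. Genes known as markers of these neighbours were therefore followed beside those of the septum. In bulk tissue, a change in the number of cells of a type and a change in the RNA of each cell cannot be told apart.

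Library totals ran from 19988137 to 26210790 reads, and 97.6% to 97.8% of the reads were in the listed rows. Trbc2, which encodes a constant segment of the deleted receptor chain, had 0 reads in both TCRb-/- libraries, and 169 and 86 reads in the WT libraries of experiments 1 and 2. Differences are given as experiment 2 minus experiment 1 on the log2(CPM + 1) scale, which understates the change of low genes. They were tested with limma with genotype as a block and Benjamini-Hochberg adjustment over all genes tested, and a gene with an adjusted p under 0.05 is said to be called. That fit called 3437 of 13912 genes (24.7%), 1292 higher in experiment 2 (9.29%) and 2145 lower (15.4%). All 3437 had the same sign in both genotypes. The residual of this fit is the gap between the genotypes' differences, so a gene with opposite signs could not readily be called. The shared sign is therefore no separate evidence that the genotypes agree. Of the calls, 74 were at least 2-fold higher and 172 at least 2-fold lower. The median difference of all genes tested was -0.03. The fit has 1 residual degree of freedom, and its calls rest on the spread pooled over genes. With the block but no mean-variance trend, limma called 0 genes, with 4816 at an unadjusted p under 0.05 against 5529 in the fit with the trend. Without the TCRb-/- library of experiment 1, the TCRb-/- library of experiment 2 or the WT library of experiment 1, the counts were 1406, 1823 and 1637. Without the WT library of experiment 2 there were 3390. Of the calls, 37.6% were higher in experiment 2 under scaling to library totals, 46.1% of 3440 under median-of-ratios scaling and 50.6% of 3513 under quantile normalization. With 2 libraries on each side, an exact two-sided permutation test of a single gene that ignores genotype cannot give a p below 0.333. Permuting within genotype allows fewer arrangements, so its lowest possible p is higher.

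The regional lists moved apart between experiments. Genes of the striatum and of the cortex and hippocampus were lower in experiment 2, and genes of the choroid plexus, hypothalamus and thalamus were higher. The lateral septum list had a smaller median difference, with 4 of 14 genes called higher. Both experiment 2 libraries lay beyond both experiment 1 libraries for 9361 of all genes tested (67.3%), so such a separation is common among all genes. The counts of each list below stand beside 9.29% of all genes called higher and 15.4% called lower. The lists were chosen with earlier results of these data known, so these counts are a description and no test.

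**Figure D1:**
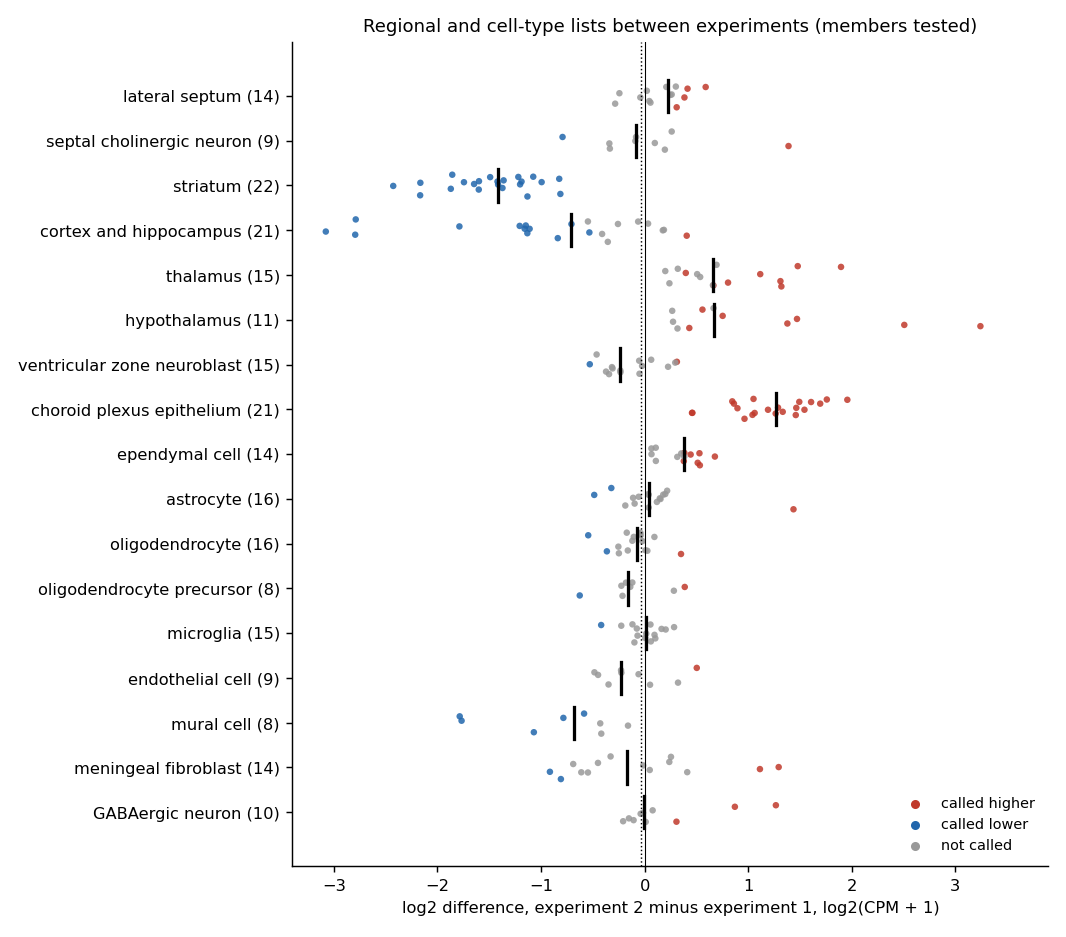
Log2 difference between experiments (x axis, experiment 2 minus experiment 1 on log2(CPM + 1)) for the tested members of each regional and cell-type list (y axis, number tested in brackets). Each point is a gene, coloured by its limma call, the thick bar is the list's median, and the dotted line is the median of all genes tested at -0.03. All 22 striatum points lie left of 0 and all 21 choroid plexus points right of it.

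Markers of the septum itself are given first, and no other tissue was compared to check the label. All 14 listed lateral septum genes were tested, 4 were called higher and 0 lower, and their median difference was 0.23. Values are given in the order TCRb-/- then WT, for experiment 1 and then for experiment 2. Sst, the neuropeptide somatostatin, had 196 and 169 CPM in experiment 1 and 168 and 204 CPM in experiment 2. Its experiments overlapped, and the difference was 0.02 (adjusted p 0.902 in limma). Nts, the neuropeptide neurotensin, had 61.3 and 56.7 CPM and then 70.3 and 76.5 CPM. Both libraries of experiment 2 were above both of experiment 1, by 0.31 (adjusted p 0.0354 in limma). The zinc-finger factors of the septal anlage were also called higher: Zic1 by 0.39 (34.6 and 38.1 CPM, then 51.5 and 44.2 CPM) and Zic4 by 0.42 (41.0 and 37.0 CPM, then 57.3 and 47.7 CPM). Crhr2, a receptor for corticotropin-releasing factor family peptides, had 14.1 and 11.5 CPM and then 20.1 and 11.7 CPM, which overlap between experiments (difference 0.25, adjusted p 0.233 in limma). Without the WT library of experiment 1 the lateral septum list had 0 calls and a median of 0.12, and after a transcript-length trend was removed it had 3 calls and a median of 0.13.

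Of the 9 septal cholinergic genes tested, 1 was called higher and 1 lower, with a median of -0.08. Isl1 and Lhx8, factors that specify forebrain cholinergic neurons, had differences of 0.20 and 0.26 that were not called. Chat, which makes acetylcholine, had 9.92 and 15.8 CPM and then 8.46 and 11.2 CPM (-0.33, adjusted p 0.103 in limma). Slc5a7, the choline transporter that supplies its substrate, had 16.8 and 19.3 CPM and then 8.36 and 11.9 CPM, lower in both experiment 2 libraries by 0.79 log2 units (adjusted p 0.00655). The member called higher was Gbx2, a homeobox factor that the developing thalamus also expresses, with 6.67 and 8.203 CPM and then 28.9 and 15.2 CPM. Slc5a7 was chosen after its values were seen.

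Genes of GABA synthesis differed little between experiments. Gad1 and Gad2, which make GABA, differed by 0.01 and 0.08, and neither was called. Of the 10 genes on that list 3 were called higher, all calcium-binding proteins of neuronal subtypes. Calb2 (calretinin) had 330.0 and 312 CPM and then 912 and 657 CPM, a difference of 1.27 (adjusted p 0.000741 in limma). Pvalb (parvalbumin) had 23.2 and 28.0 CPM and then 39.8 and 56.6 CPM, a difference of 0.87, and Calb1 (calbindin) differed by 0.31. Pvalb and Calb1 were picked with their values in view. The list's median was -0.002, and the other 7 members were not called.

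All 22 striatum genes tested were called lower in experiment 2, with a median of -1.42. Their summed level was 7974 and 7078 CPM in the TCRb-/- and WT libraries of experiment 1 and 1846 and 4098 CPM in those of experiment 2. The list joins genes of both classes of striatal projection neuron, which release GABA and carry dopamine receptors. Drd1, the D1 dopamine receptor of the direct pathway, had 167 and 146 CPM and then 25.7 and 81.3 CPM. Every experiment 2 value was below every experiment 1 value, by 1.74 log2 units (SE 0.33, adjusted p 0.0106 in limma). Drd2, the D2 receptor of the indirect pathway, had 48.9 and 42.1 CPM and then 12.8 and 27.9 CPM (-1.22), and Adora2a, an adenosine receptor of the same neurons, 107 and 81.4 CPM and then 13.7 and 44.4 CPM (-1.87). Genes of both pathways were thus lower together. Penk, which encodes the enkephalin precursor and is also a neuropeptide of lateral septal neurons, had 1241 and 1121 CPM and then 325 and 806 CPM (-1.20). Shared signalling genes moved the same way, among them Ppp1r1b (DARPP-32, 1574 and 1409 CPM, then 299.8 and 804 CPM, -1.599), Gng7 (-1.65), Rasd2 (-1.19) and the phosphodiesterase Pde10a (-2.17). Scn4b, a sodium channel beta subunit, had the lowest difference of the list at -2.43.

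Cd4, known as the coreceptor of helper T cells, was among these 22. It had 85.0 and 68.5 CPM and then 6.70 and 37.5 CPM, a difference of -2.17 (SE 0.48, adjusted p 0.0168 in limma). On the T cell list, Trac, a constant segment of the receptor's alpha chain, had 0.57 and 0.99 CPM and then 1.15 and 1.61 CPM. Trbc2 had 0 CPM in both TCRb-/- libraries and 6.45 and 3.85 CPM in WT of experiments 1 and 2. Of the 12 members 8, Cd3e among them, were not analysed here.

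The striatum list was lower by more in TCRb-/- than in WT, with medians of -2.07 and -0.84. The difference was larger in TCRb-/- for 22 of 22 members, against 8286 of 13912 genes tested. With 1 library of each genotype in each experiment, this difference of differences could not be tested. Without the TCRb-/- library of experiment 2 the median was -0.92, and 21 of the 22 genes were called lower. Without the TCRb-/- library of experiment 1 only 6 were called (median -1.36), and without the WT library of experiment 1 only 8 (median -1.48). The list was as low after the transcript-length trend was removed (median -1.39, 22 of 22 called).

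**Figure D2:**
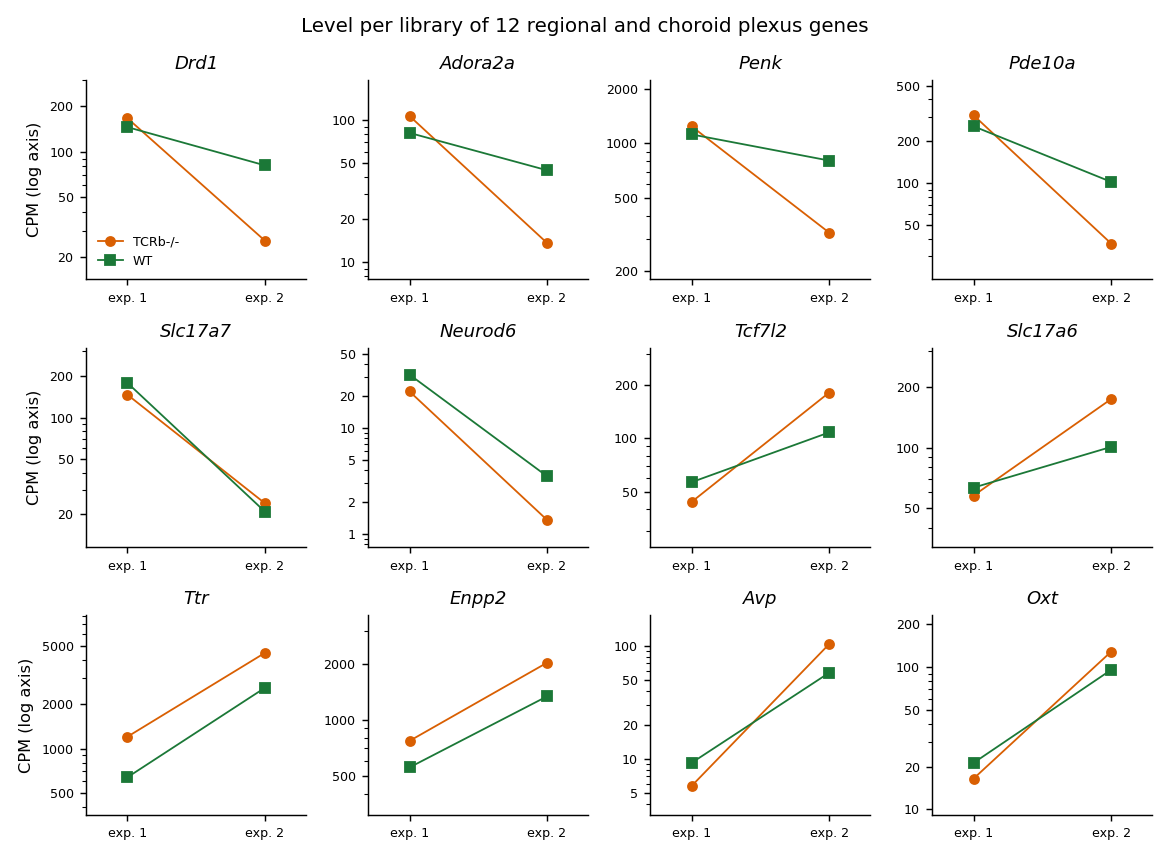
Level of 12 genes in each library (y axis, CPM on a log axis) in experiments 1 and 2 (x axis), with circles for TCRb-/- and squares for WT, 1 library per point and no error bars. Drd1, Adora2a, Penk and Pde10a were lower in experiment 2 with the lowest point in TCRb-/-, while Slc17a7 and Neurod6 were lower by a like amount in both genotypes, and the other 6 genes were higher.

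Of 21 genes of cortex and hippocampus, 12 were called lower and 1 higher, with a median of -0.71. Those called lower included markers of cortical and hippocampal excitatory neurons. Neurod6, a basic helix-loop-helix factor of these neurons, had the lowest difference of all genes tested. It lies on chromosome 6 from 55677822 to 55681263 in GRCm38 and is protein coding. It had 22.0 and 31.7 CPM (541 and 831 reads) in experiment 1 and 1.35 and 3.49 CPM (27 and 78 reads) in experiment 2. That is a difference of -3.08 (SE 0.16, adjusted p 0.000292 in limma), and the mean CPM of experiment 2 was 0.0901 times that of experiment 1. Slc17a7, which encodes the vesicular glutamate transporter VGLUT1 and lies on chromosome 7 from 45163949 to 45176142, had 146 and 178 CPM and then 24.01 and 20.9 CPM (-2.79). Neurod2, a related factor, had 13.8 and 17.0 CPM and then 0.70 and 2.28 CPM (-2.79).

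The same list held genes that differed less. Tbr1, a factor of early-born and deep-layer neurons, had 20.9 and 27.6 CPM and then 12.9 and 13.2 CPM (-0.84). Mef2c, an activity-regulated factor, had 123 and 167 CPM and then 56.2 and 73.5 CPM (-1.15), and Nrgn, a calmodulin-binding postsynaptic protein, differed by -0.53. Rasgrf2, Rorb, Cux2 and Prox1, which mark upper layers or the dentate gyrus in cortex and hippocampus, had differences from -0.06 to 0.19 that were not called, and their experiments overlapped. The member called higher was Bok, at 186 and 155 CPM and then 252 and 202 CPM (0.41). Rasgrf2, Rorb, Cux2 and Prox1 were chosen after their values were seen. In contrast to the striatum list, the medians were near each other in the 2 genotypes, at -0.78 in TCRb-/- and -0.93 in WT, and the difference was larger in TCRb-/- for 12 of 21 members.

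Several hypothalamic neuropeptide genes were higher in experiment 2. Of the 14 listed hypothalamus genes 11 were tested, 7 were called higher and 0 lower, with a median of 0.67. Avp and Oxt, which encode vasopressin and oxytocin and are neighbours on chromosome 2, had the highest differences of all called genes. Avp (130580620 to 130582554) had 5.74 and 9.20 CPM (141 and 241 reads) and then 104 and 57.8 CPM (2073 and 1292 reads). The mean was 10.8-fold higher in experiment 2 (log2 difference 3.24, SE 0.28, adjusted p 0.00105 in limma). Oxt (130576173 to 130577054) had 16.5 and 21.2 CPM and then 129 and 95.9 CPM, a 5.96-fold higher mean (log2 difference 2.51). For both genes, both experiment 2 libraries were above both experiment 1 libraries.

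Other peptide genes followed at smaller size. Gal, which encodes galanin, had 27.0 and 28.7 CPM and then 74.4 and 73.6 CPM (1.38, adjusted p 0.000426 in limma). Trh, thyrotropin-releasing hormone, had 19.3 and 22.3 CPM and then 65.8 and 53.5 CPM (1.47). Baiap3, a regulator of dense-core vesicle release, had 111.5 and 160 CPM and then 188 and 174 CPM (0.43). Gnrh1, the peptide of the medial septal and preoptic neurons that drive gonadotropin release, had 9.19 and 13.4 CPM and then 12.3 and 15.2 CPM, which overlap (0.28, not called). Pomc and Hdc, of arcuate and tuberomammillary neurons, differed by 0.27 and 0.32 and were not called either. The 3 members under the filter did not share a direction. Otp, a factor of the paraventricular nucleus, had 0.33 and 0.69 CPM and then 1.85 and 1.07 CPM. Sim1, another, had 0.16 and 0.11 CPM and then 1.05 and 0.81 CPM. Agrp, a peptide of arcuate neurons, had 0.61 and 0.46 CPM and then 0.30 and 0.45 CPM. Gnrh1, Pomc, Hdc, Otp, Sim1 and Agrp were picked with their values in view. The list's medians were 0.79 in TCRb-/- and 0.64 in WT, and all 11 tested members were above 0 in both genotypes. Of the 11, 4 were called without the TCRb-/- library of experiment 1.

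Of 15 thalamus genes 8 were called higher and 0 lower, with a median of 0.665. Tcf7l2, a Wnt-pathway factor of thalamic neurons, had 43.6 and 56.5 CPM and then 182 and 108 CPM (1.48, SE 0.21, adjusted p 0.00474 in limma). Slc17a6, the vesicular glutamate transporter VGLUT2 of thalamic and hypothalamic neurons, had 57.9 and 63.4 CPM and then 174 and 101 CPM (1.12). Rora had 52.4 and 60.8 CPM and then 110.5 and 73.4 CPM (0.66). Shox2, a homeobox factor that is on no list, had 4.51 and 7.21 CPM and then 40.4 and 18.2 CPM (2.07), and Tnnt1, a troponin that marks thalamic relay neurons, 2.12 and 4.16 CPM and then 18.5 and 10.4 CPM (1.90). Prkcd, a kinase of thalamic relay neurons that septal and striatal neurons also express, had 222 and 192 CPM and then 284 and 209.9 CPM, which overlap (0.24, adjusted p 0.055 in limma). In all 15 members the TCRb-/- library of experiment 2 was the highest and the difference was larger in TCRb-/- than in WT, with medians of 1.225 and 0.22. Without that library the median was 0.30 with 7 genes called, and without the TCRb-/- or WT library of experiment 1 the calls were 2 and 4.

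All 21 choroid plexus genes were called higher in experiment 2, with a median of 1.27. The choroid plexus makes cerebrospinal fluid. The summed level of its list was 2263.5 and 1395 CPM in experiment 1 and 7129.5 and 4355 CPM in experiment 2. Ttr, which carries thyroid hormone and retinol-binding protein, had 1204 and 638 CPM and then 4478 and 2591 CPM (1.96, SE 0.08, adjusted p 8.52e-05 in limma). Enpp2, which makes lysophosphatidic acid, had 769 and 554 CPM and then 2028 and 1336 CPM (1.33). Folr1, the folate receptor, had 16.1 and 9.42 CPM and then 57.5 and 33.9 CPM (1.76). The potassium channel genes Kcnj13 and Kcne2 differed by 1.70 and 1.61, the tight-junction gene Cldn2 by 1.49, and the anion transporter gene Slc4a2, which other brain cells express as well, by 0.46. In each experiment the TCRb-/- library was above the WT library for all 21 members, while the difference between experiments had medians of 1.18 in TCRb-/- and 1.26 in WT. It was larger in TCRb-/- for 11 of 21 members. Without the WT library of experiment 1, 9 of the 21 were called higher, with a median of 0.96.

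Genes of the ciliated ependyma moved less. Of 14 tested, 7 were called higher and 0 lower, with a median of 0.38. Foxj1, the master factor of motile cilia, had 29.3 and 20.6 CPM and then 27.4 and 24.3 CPM, which overlap (0.07, adjusted p 0.699 in limma). Rsph1 and Ccdc153, of the ciliary axoneme, differed by 0.38 each, and Dynlrb2, a dynein light chain, by 0.51. Under other settings fewer were called: 1 of 14 after the transcript-length trend was removed (median 0.25), 1 without the TCRb-/- library of experiment 2, 4 without that of experiment 1 and 0 without the WT library of experiment 1.

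**Figure D3:**
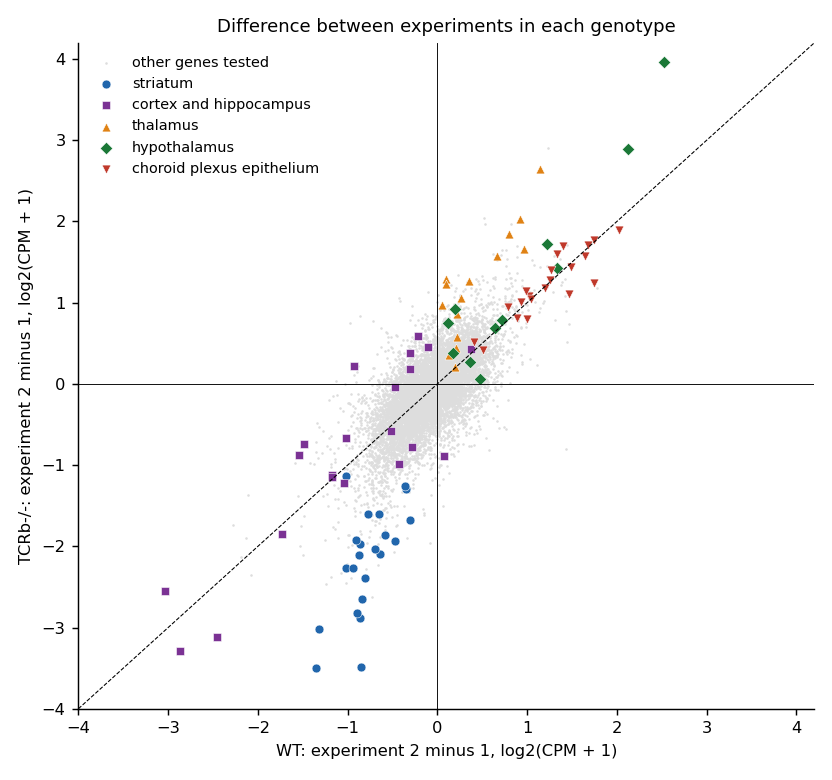
Difference between experiments in TCRb-/- (y axis) against that in WT (x axis), both experiment 2 minus experiment 1 on log2(CPM + 1). Each point is a gene, 5 lists are coloured, the other tested genes are grey, and the dashed line marks equal differences. The striatum points lie below the line and the thalamus points above it, while choroid plexus, cortex and hippocampus points scatter about it.

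Glial lists stayed near the median of all genes. Astrocyte genes had a median of 0.04, with 1 of 16 called higher and 2 lower, oligodendrocyte genes -0.075 (1 of 16 higher, 2 lower) and microglia genes 0.02 (0 of 15 higher, 1 lower). Aldoc of astrocytes differed by 0.04, and Mbp of myelin by -0.045, neither of them called. The astrocyte gene called higher was Agt, which encodes angiotensinogen and is regionally expressed in astrocytes of hypothalamus and midline. It had 46.8 and 43.2 CPM and then 142 and 108 CPM (1.44, adjusted p 0.000426 in limma). Of 8 oligodendrocyte precursor genes 1 was called higher and 1 lower, with a median of -0.16. They were Lhfpl3, with 44.4 and 44.6 CPM and then 60.3 and 56.8 CPM (0.39), and Gpr17, a receptor of differentiating cells, with 27.7 and 26.3 CPM and then 16.9 and 17.4 CPM (-0.63). With a transcript-length trend removed, 0 astrocyte, oligodendrocyte and microglia genes were called lower. Agt was chosen after its values were seen.

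Among cells of vessels and coverings, mural genes were lower. Of 8 tested, 5 were called lower and 0 higher, with a median of -0.68. Acta2, the actin of smooth muscle, had 20.4 and 15.3 CPM and then 4.35 and 4.61 CPM (-1.77, adjusted p 0.00127 in limma). Tagln, a smooth muscle actin-binding protein, had 11.75 and 9.04 CPM and then 1.45 and 3.40 CPM (-1.78), and Vtn, a pericyte gene, 14.2 and 14.5 CPM and then 9.56 and 8.90 CPM (-0.58). Myh11, the smooth muscle myosin, had 1.34 and 2.098 CPM and then 0.30 and 0.27 CPM and was chosen after its values were seen. Endothelial genes had a median of -0.22 with 1 of 9 called, Pltp (0.50). Without the WT library of experiment 1, 2 of the 8 mural genes were called.

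Meningeal fibroblast genes split. Of 14 tested 2 were called higher and 2 lower, with a median of -0.17. Igfbp2 had 53.0 and 30.6 CPM and then 124.6 and 80.7 CPM (1.29), and Igf2 had 15.7 and 11.7 CPM and then 36.2 and 25.6 CPM (1.11). Both are genes that choroid plexus also expresses, and both were higher in TCRb-/- than in WT in each experiment. The part of choroid plexus in these values was not tested. Collagen gene Col1a2 had 8.175 and 6.83 CPM and then 7.20 and 7.60 CPM, which overlap (-0.01). Only 1 of the 8 blood genes, Alas2, was listed, and it was not called.

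Genes of newborn cells of the ventricular wall gave no common direction. Of 15 tested, Tubb3, a tubulin of young neurons, was called higher (0.31) and Dcx, a microtubule-associated protein of migrating neuroblasts, lower (-0.53), with a median of -0.23. Dcx had 14.15 and 12.6 CPM and then 8.855 and 9.035 CPM and was chosen after its values were seen. With a transcript-length trend removed, 0 of the 15 were called and the median was -0.09.

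Some of the genes with the largest differences were on the lists used here. These lists were chosen with earlier results of these data known, so the shares are a description and no test. Of the 74 genes called at least 2-fold higher 29 (39.2%) were on a list, 15 of them choroid plexus, and of the 172 at least 2-fold lower 38 (22.1%) were, 19 of them striatum and 9 cortex and hippocampus, against 630 (4.53%) of all genes tested. Among the extremes on no list, Krt18, a keratin of simple epithelia, had 5.98 and 4.16 CPM and then 18.3 and 13.5 CPM (1.48). Mas1, a G protein-coupled receptor, had 7.40 and 10.8 CPM and then 0.65 and 1.79 CPM (-2.21), and the secreted protein gene Nov (Ccn3) 21.3 and 32.35 CPM and then 4.10 and 6.31 CPM (-2.16). Prss12, which encodes the protease neurotrypsin, had 16.1 and 19.1 CPM and then 3.602 and 3.58 CPM (-2.02). In Mas1, Nov and Prss12 the WT library of experiment 1 was the highest, and the cells that these transcripts came from were not tested. Kcnh3, a potassium channel gene, and Rasl10a, a small GTPase gene, differed by -1.85 and -1.80.

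Functional lists, which group genes by function and not by region, also moved apart. Their members can still differ in level between regions, and the part of the regional differences in these values was not tested. Genes of oxidative phosphorylation, ribosome and proteasome were higher in experiment 2, and genes of ion channels, glutamate receptors and nuclear RNAs were lower. These 2 sets differ in transcript length, which itself went with the difference between experiments.

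**Figure D4:**
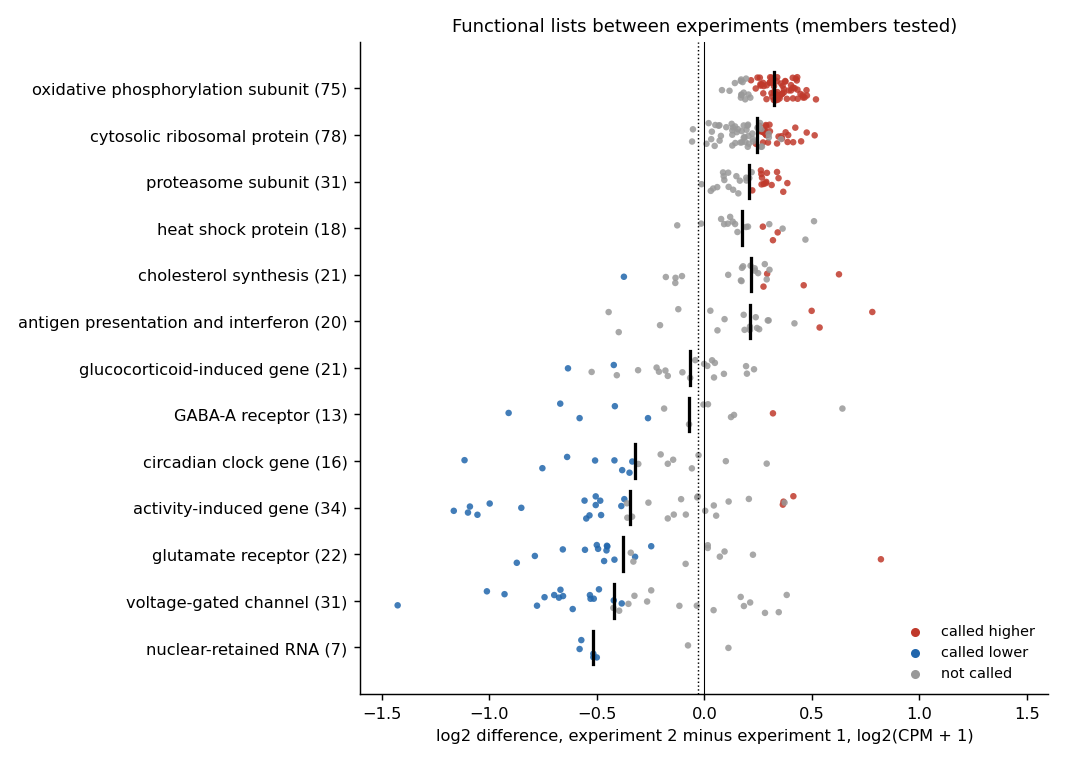
Log2 difference between experiments (x axis, experiment 2 minus experiment 1 on log2(CPM + 1)) for the tested members of each functional list (y axis, number tested in brackets). Points are genes coloured by their limma call, thick bars are list medians, and the dotted line is the median of all genes tested. All 75 oxidative phosphorylation genes lie right of 0, and most channel and glutamate receptor genes lie left of it.

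The oxidative phosphorylation list holds nuclear-encoded subunits of the respiratory chain and the ATP synthase. Of 75 tested, 61 were called higher and 0 lower, with a median of 0.325 and a range from 0.08 to 0.52. Uqcrc1, a core subunit of complex III, had the highest difference of the list: 577 and 597.5 CPM and then 899 and 788 CPM (0.52, adjusted p 0.00554 in limma). Cox4i1, of complex IV, had 735 and 719.5 CPM and then 918 and 889 CPM (0.31). Atp5a1 and Atp5b, the alpha and beta subunits of the ATP synthase, differed by 0.26 (called) and 0.08 (not called), and Sdha, of complex II, by 0.17 (not called). Both experiment 2 libraries were above both experiment 1 libraries for 74 of 75 genes, against 4181 of 13912 genes tested. Of the 75, 40 were called without the TCRb-/- library of experiment 2. Mitochondrially encoded transcripts were not analysed here. Uqcrc1 was chosen after its values were seen.

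Cytosolic ribosomal protein genes (78 tested) had 30 called higher and 0 lower in experiment 2, with a median of 0.24, and proteasome genes (31) had 14 and 0 with a median of 0.21. Rpl4 had 287 and 289 CPM and then 311 and 326 CPM (0.14, not called), and Psmb6, a catalytic beta subunit, 403 and 393 CPM and then 487 and 488 CPM (0.29, adjusted p 0.0178 in limma). Without the TCRb-/- library of experiment 1, 7 ribosomal protein and 6 proteasome genes were called. Without the TCRb-/- library of experiment 2 the counts were 7 and 5, and without the WT library of experiment 1 they were 12 and 11. Heat shock protein genes had 3 of 18 called higher, among them Hspa8, the constitutive HSP70 (0.32), and cholesterol synthesis genes had 4 of 21 higher and 1 lower.

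The difference between experiments fell along with transcript length, which is that of the longest annotated transcript of each gene. In the first of 10 groups of genes by length, the shortest (median 1061 nucleotides) the median difference was 0.20, with 27.1% called higher and 2.21% lower. In the last, the longest (median 8457 nucleotides) it was -0.23, with 1.62% called higher and 32.0% lower. Across 13580 genes, which are not independent replicates, Spearman's rho of the difference with length was -0.446, at -0.367 in TCRb-/- and -0.473 in WT. With GC content it was 0.0229. Differences between genotypes within experiments 1 and 2 had a rho of -0.114 and -0.0878 with length.

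**Figure D5:**
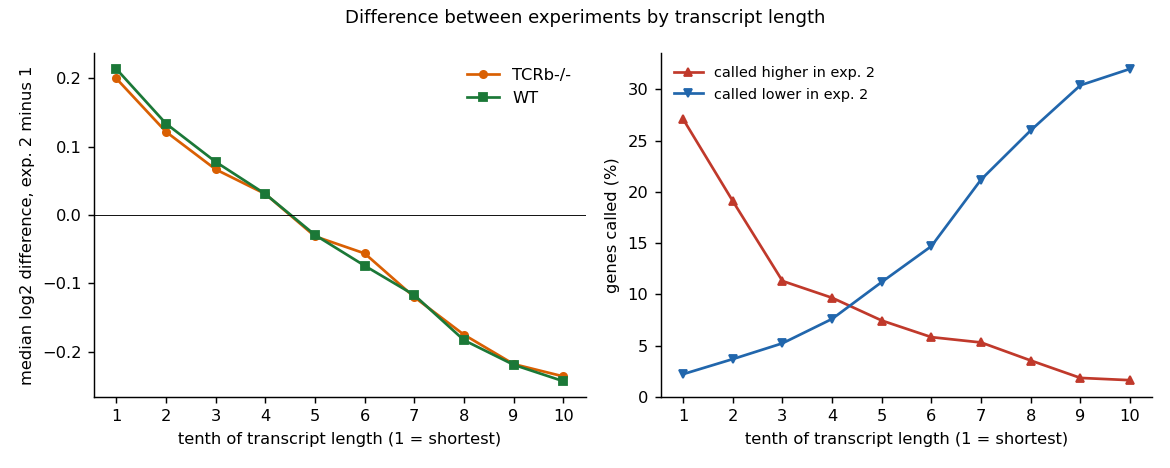
Left, median log2 difference between experiments (y axis, experiment 2 minus experiment 1) in 10 groups by transcript length (x axis, 1 the shortest) for TCRb-/- (circles) and WT (squares). Right, percent of genes called higher (up triangles) and lower (down triangles) in each group. Both genotypes fall from about 0.20 to about -0.24, and the calls change over from 27.1% higher to 32.0% lower.

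Oxidative phosphorylation genes had a median transcript of 1141 nucleotides and ribosomal protein genes of 1076, against 3426 for all genes tested. After a smooth trend on length was removed from each library, 18 of 75 oxidative phosphorylation genes were called higher (median 0.16), 3 of 78 ribosomal protein genes (median 0.075) and 5 of 31 proteasome genes (median 0.09). In the regional and choroid plexus lists with most calls, 22 of 22 striatum, 12 of 21 cortex and hippocampus, 21 of 21 choroid plexus, 8 of 11 hypothalamus and 11 of 15 thalamus genes were then called in the direction given above. Other lists lost calls: ependymal genes called higher fell from 7 to 1 of 14, and mural genes called lower from 5 to 4 of 8. The thalamus median was 0.89, against 0.665 before. Of all genes, 2124 were called with the trend removed, 1682 of them among the 3437.

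Genes of synaptic receptors and channels have long transcripts. The median was 5436 nucleotides for glutamate receptors and 8384 for voltage-gated channels. Of 22 glutamate receptor genes 13 were called lower and 1 higher, with a median of -0.38. Gria2, an AMPA receptor subunit, had 568 and 525 CPM and then 381 and 394 CPM (-0.49, adjusted p 0.00486 in limma). Gria1 had 339 and 274 CPM and then 233 and 208 CPM (-0.47), and Grin1, the obligatory NMDA receptor subunit, 128 and 112.5 CPM and then 104 and 98.0 CPM (-0.25). The member called higher was Grm2, a presynaptic metabotropic receptor, with 19.1 and 15.3 CPM and then 39.4 and 24.3 CPM (0.82), chosen after its values were seen. Of the 22, 7 were called lower without the TCRb-/- library of experiment 1. With the length trend removed, 6 of the 22 were called lower and 2 higher (median -0.20).

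Of 31 channel genes 16 were called lower and 0 higher, with a median of -0.42, and with the length trend removed 10 were lower and 3 higher (median -0.205). Kcna1, a delayed rectifier, had 131 and 109 CPM and then 78.8 and 86.4 CPM (-0.53). Of 13 GABA-A receptor genes, 5 were called lower and 1 higher, with a median of -0.07. With the length trend removed, 3 were lower and 3 higher, and the median was 0.03.

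Nuclear-retained long RNAs were lower. Of 7 tested, 5 were called lower and 0 higher, with a median of -0.52. Malat1 had 1554 and 1091 CPM and then 871 and 973 CPM (-0.50, adjusted p 0.0351 in limma), Meg3 289.9 and 255 CPM and then 187 and 193 CPM (-0.52), and Snhg11 249.8 and 243 CPM and then 159 and 172.5 CPM (-0.57). Per the labels' protocol the lysate was cleared by centrifugation before RNA was taken, so these levels are what remained after that step. The list's median transcript was 9163 nucleotides, and with the length trend removed 1 of 7 was called lower (median -0.27). Of the 7, 2 were called without the TCRb-/- library of experiment 1.

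Activity-induced genes, which neurons transcribe within minutes to hours of firing, split. Of 34 tested, 15 were called lower and 3 higher, with a median of -0.35. The restraint sessions and the time of death after them were labelled alike in all groups. Fos, which encodes a subunit of the AP-1 factor, was among the 3 called higher. It had 32.5 and 41.6 CPM and then 49.7 and 48.8 CPM (0.41, SE 0.11, adjusted p 0.0278 in limma). Jund, of the same factor, had 183 and 174 CPM and then 239 and 223 CPM (0.37). With the length trend removed 1 of the 3 was called, Jund, and Fos, at 0.33, was not, while 12 genes were called lower. Several other immediate early genes were lower, while 16 of the 34 were not called. A difference above 0 was seen for 9 of the 34, the 3 called higher included. Egr1, a zinc-finger factor, had 375 and 396 CPM and then 235 and 301 CPM (-0.53), Nr4a1, an orphan nuclear receptor, 48.5 and 55.6 CPM and then 28.2 and 46.7 CPM (-0.51), and Arc, a synaptic regulator, 146 and 117 CPM and then 93.1 and 107 CPM (-0.39, adjusted p 0.0448). Npas4, a neuron-specific factor, had 5.74 and 2.098 CPM and then 1.00 and 1.07 CPM (-1.17). Homer1, a postsynaptic scaffold gene with an activity-induced short form, had 104 and 122 CPM and then 43.6 and 66.5 CPM (-1.05), and Egr3 had 17.0 and 14.5 CPM and then 6.25 and 7.38 CPM (-1.10). Fos was thus higher in both experiment 2 libraries, in which Egr1, Nr4a1, Arc, Npas4, Homer1 and Egr3 were all lower. Homer1 and Egr3 were picked with their values in view. The calls depended on single libraries: 5 lower without the TCRb-/- library of experiment 1, 7 without that of experiment 2 and 6 without the WT library of experiment 1. The summed level of the striatum list, some of whose neurons express Arc, Egr1 and Homer1, was lower in the same libraries, and its part in these values was not tested.

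The promoters of 4 of these genes are shown because Fos was above and the other 3 below their experiment 1 levels while all 4 carry the core of the cAMP response element, the site through which CREB acts on activity-induced genes. Each sequence is the 250 bases before a RefSeq start site in GRCm38.p6, 5′ to 3′ on the gene's strand, and capitals mark TGACG on either strand (CGTCA when read on the strand shown). They lie at chr12:85473640-85473889 (plus strand) for Fos, chr19:4989972-4990221 (minus strand) for Npas4, chr15:101266596-101266845 (plus strand) for Nr4a1 and chr13:93303507-93303756 (plus strand) for the upstream of 2 Homer1 starts.
Fos: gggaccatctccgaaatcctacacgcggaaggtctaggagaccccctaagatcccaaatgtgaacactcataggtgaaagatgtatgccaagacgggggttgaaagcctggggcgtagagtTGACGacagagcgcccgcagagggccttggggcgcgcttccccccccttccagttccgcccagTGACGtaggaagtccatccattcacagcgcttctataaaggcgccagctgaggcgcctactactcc
Npas4: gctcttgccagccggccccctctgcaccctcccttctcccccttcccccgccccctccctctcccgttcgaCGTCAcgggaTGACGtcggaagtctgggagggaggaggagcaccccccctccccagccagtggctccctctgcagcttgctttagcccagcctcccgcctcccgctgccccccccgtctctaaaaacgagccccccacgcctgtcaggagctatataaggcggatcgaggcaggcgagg
Nr4a1: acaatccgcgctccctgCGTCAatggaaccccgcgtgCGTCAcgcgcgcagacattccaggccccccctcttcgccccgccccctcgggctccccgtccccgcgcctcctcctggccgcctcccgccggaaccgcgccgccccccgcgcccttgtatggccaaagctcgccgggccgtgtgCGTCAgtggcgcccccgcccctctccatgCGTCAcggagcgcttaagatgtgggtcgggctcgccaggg
Homer1: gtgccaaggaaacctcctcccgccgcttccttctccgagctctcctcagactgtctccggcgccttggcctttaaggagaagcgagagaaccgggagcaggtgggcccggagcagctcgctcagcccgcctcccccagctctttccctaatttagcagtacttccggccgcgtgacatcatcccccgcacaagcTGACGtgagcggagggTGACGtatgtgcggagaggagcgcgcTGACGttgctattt
The core occurs 2 times in the Fos window, 2 in Npas4, 4 in Nr4a1 and 3 in Homer1, and 0 times in the window of the other Homer1 start. At least 1 promoter window held it in 7 of the 11 matched genes that were called lower, 1 of 3 called higher and 10 of 12 not called, against 19.8% of 27025 genes in the table. The full palindrome TGACGTCA, which contains the core, was in 1.77% of genes and in 0 of these 4 windows. A match describes letters in the window only.

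Genes that glucocorticoids induce showed few calls. Of 21 tested, 2 were called lower and 0 higher, with a median of -0.07. Fkbp5, a chaperone of the glucocorticoid receptor, had 88.9 and 66.3 CPM and then 59.1 and 55.2 CPM (-0.42, adjusted p 0.0177 in limma), and Klf9, a transcription factor, 214 and 252 CPM and then 138 and 161 CPM (-0.63). Sgk1, a kinase, had 391.9 and 412.5 CPM and then 377 and 405 CPM, which overlap (-0.04). Mt1, a metallothionein, differed by 0.04 and was not called.

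Of 16 circadian clock genes 8 were called lower and 0 higher, with a median of -0.32. Tef, a PAR bZIP factor, had 534 and 494.5 CPM and then 310 and 351 CPM (-0.64), and Cry2, a repressor of the clock, 227.5 and 222 CPM and then 163 and 153 CPM (-0.51). Npas2, a partner of BMAL1 in forebrain, had the lowest difference, with 72.7 and 58.2 CPM and then 27.5 and 31.6 CPM (-1.12, adjusted p 0.00278 in limma). Of genes that normally peak at different times of day, Per2, a repressor, differed by -0.75, Arntl (BMAL1), an activator, by -0.42, and Dbp and Nr1d1, whose levels swing widely over the day, by -0.06 and -0.145, neither called. Npas2, Per2 and Arntl were picked with their values in view. The labels give no time of day. With the length trend removed 4 of the 16 were called lower (median -0.17). Of the 16, 5 were called without the TCRb-/- or the WT library of experiment 1.

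Antigen presentation and interferon genes had 3 of 20 called higher and 0 lower, with a median of 0.21. B2m, the light chain of MHC class I, had 55.7 and 51.2 CPM and then 84.5 and 68.2 CPM (0.50, adjusted p 0.00694 in limma), and Ifi27 had 53.4 and 44.8 CPM and then 82.4 and 61.9 CPM (0.54). Tapbp, which loads peptide onto class I, differed by 0.19 and was not called. With the length trend removed, 1 of the 20 was called higher, and B2m, at 0.29, was not called. Of 4 Y-linked genes 0 were called, and their summed level ran from 98.0 to 115 CPM.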

How the data were processed

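RNA from septal tissue was measured by RNA sequencing in 4 pools, 1 TCRb-/- and 1 WT in each of 2 experiments. Per the labels' protocols, tissue of 4 to 5 mice was homogenised, lysates were cleared by centrifugation, RNA was taken from the detergent-treated supernatant, and libraries were made with a SMARTer ultralow input kit. The submitters' processing notes name HISAT2 2.1.0, SAMtools 1.3, HTSeq 0.9.1, R 4.0.5, limma 3.46.0 and mm10, with no roles. The deposited values are log2 values per gene and library. They fit whole reads exactly as log2 of reads plus 0.5 scaled to the library total plus 1, within a tolerance of 0.001 reads, so reads and CPM (reads scaled to a fixed library total) were recovered from them.

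Reads were divided by the library total and analysed as log2(CPM + 1) with limma 3.58.1 in R 4.3.3, with experiment and genotype as terms, empirical Bayes with a mean-variance trend, two-sided tests and Benjamini-Hochberg adjustment. The 17 ERCC rows and genes under a mean of 1 CPM were left out, and 12 rows share 6 symbols and were kept as separate rows. Replicates are pools, and each genotype had 1 pool in each experiment. The comparison has 1 residual degree of freedom, which is the gap between the genotypes' differences. Of the 7.79 degrees of freedom used, the rest came from spread pooled over genes. The p-values thus rest mostly on that pooled spread and not on spread between replicate pools. The replicate numbers in the labels mark the experiment, so the block is the genotype.

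The genes named were drawn from the 15 highest and 15 lowest called differences with a mean of at least 5 CPM, the 4 members of each list with the highest CPM, and a short list of genes always given. Some of these genes are not reported here. The comparison, gene lists and rules were chosen with earlier results of these data known. Positions and transcript lengths came from GENCODE (GRCm38), with a length for 97.5% of rows, and promoters from RefSeq (GRCm38.p6). The length is that of the longest annotated transcript of each gene symbol, which need not be the one expressed. Python 3.11.15 with pandas 2.3.3, numpy 2.4.6 and scipy 1.17.1 made the summaries, and matplotlib 3.10.9 the figures. Alternatives covered the pseudocount (0.1 and 5), the filter (none and 10 CPM), scaling, the block, the trend, thinning to the smallest total, a transcript-length trend and each library left out. Without one library, the fit had experiment as its only term, and the lone library of an experiment was assumed to vary like the pair.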

Additional observations from a re-analysis of the deposited data

Results flagged for a closer look

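The median difference between experiments had opposite signs in the 2 genotypes for 3 lists, and these contrasts were not tested, since each genotype has 1 library in each experiment. Ventricular zone neuroblast genes had a median of -0.386 in TCRb-/- and 0.068 in WT, which is -0.454 apart. Oligodendrocyte genes had -0.137 and 0.024 (-0.161 apart), and endothelial genes 0.041 and -0.179 (0.220 apart).

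Among the named genes, 4 of the cortex and hippocampus list were above 0 in TCRb-/- and below 0 in WT. TCRb-/- minus WT was 0.80 for Prox1, 0.681 for Rorb, 0.562 for Rasgrf2 and 0.480 for Cux2, none of which was called between experiments. The same sign pattern was seen for Gad1 (0.128). The opposite pattern was seen for Sst (-0.491), Mbp (-0.352), Foxj1 (-0.321), Col1a2 (-0.297) and Mt1 (-0.133). None of these differences was tested.

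The ERCC spike-in rows, which entered no comparison, held 0.01937% of reads in TCRb-/- and 0.02441% in WT in experiment 1, and 0.01598% and 0.01748% in experiment 2. Both shares of experiment 2 were below both of experiment 1. The amount of spike-in added to each pool is not given in the sources used here.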

How the results depend on the processing

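Against 3437 genes called, limma called 0 genes without the mean-variance trend (4816 at an unadjusted p under 0.05), 629 without the trend and the genotype block, and 2124 with a transcript-length trend removed. Without the genotype block alone there were 3292, of which 3143 were among the 3437, so the genotype block changed few calls. Leaving out 1 library gave 1406 to 3390 genes. Other settings gave 2876 to 3538. The medians of the striatum, cortex and hippocampus, thalamus, hypothalamus, choroid plexus and oxidative phosphorylation lists kept their sign under every alternative run. With a library left out they ran from -2.002 to -0.922, -0.853 to -0.617, 0.303 to 1.017, 0.651 to 0.857, 0.957 to 1.531 and 0.323 to 0.339. With pseudocounts of 0.1 and 5 the median was -0.880 and -0.527 for cortex and hippocampus, 0.837 and 0.444 for hypothalamus, and 1.335 and 0.862 for choroid plexus. A filter at 10 CPM gave 0.969 for hypothalamus and 1.192 for choroid plexus, with fewer genes tested. Oxidative phosphorylation had 0.357 under median-of-ratios scaling and 0.160 with the length trend removed. The cause of the other shifts was not tested.

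The named genes whose sign changed under an alternative were all genes that were not called. Under median-of-ratios scaling, the difference was 0.015 for Col1a2. Under quantile normalization, the difference was -0.068 for Aldoc, -0.075 for Atp5b, 0.05 for Col1a2, 0.031 for Cux2 and -0.047 for Gad1. With the length trend removed, the difference was -0.017 for Atp5b, 0.187 for Col1a2, 0.167 for Cux2, 0.124 for Mbp, -0.15 for Mt1 and -0.209 for Sst. With a library left out, it ran from -0.018 to 0.099 for Aldoc, -0.127 to 0.102 for Col1a2, -0.115 to 0.613 for Crhr2, -0.237 to 0.114 for Cux2, -0.178 to 0.311 for Foxj1, -0.172 to 0.194 for Gad1 and -0.017 to 0.172 for Gad2. The range was -0.196 to 0.106 for Mbp, -0.058 to 0.131 for Mt1, -0.036 to 0.411 for Prox1, -0.153 to 0.221 for Rorb, -0.093 to 0.009 for Sgk1, -0.116 to 0.160 for Sst and -1.758 to 1.138 for Trbc2, whose 2 genotypes are unequally represented in each such fit.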
